A study of Oryza sativa Indica Group with 24 samples.

Results

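At 7 days post-anthesis (DPA), a young stage of grain filling, the high-amylose rice cultivar RD57 was compared with the waxy cultivar RD6. The comparison rests on 6 of the 24 libraries of the series, 3 biological replicates of each cultivar, and the members were all the libraries that the labels give as 7 DPA. Of the 26362 genes listed, 19336 were above 0 in all 6 libraries. Another 1912 were above 0 in RD57 and listed at 0 in RD6, 1891 were listed at 0 in RD57 and above 0 in RD6, and 3223 were at 0 in both. Neither cultivar received a treatment. Both are indica rice grown in pots in a net house under natural light, and superior grains of a tagged main-stem panicle were cut. The labels name the tissue endosperm, whereas the methods describe RNA from the grain, so embryo, aleurone and maternal layers may be in the samples. With 1 cultivar of each kind, the amylose class cannot be told apart from any other difference between RD57 and RD6.

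The rice endosperm stores carbon as starch, a mixture of branched amylopectin and nearly unbranched amylose. ADP-glucose pyrophosphorylase makes the sugar donor for both polymers, and granule-bound starch synthase I (GBSSI), the product of the Waxy gene, elongates amylose inside the granule. Waxy grains make little or no amylose, and high-amylose grains carry an active Waxy allele.

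The values are FPKM, fragments scaled by transcript length and library depth. The authors had removed values under 0.5 FPKM, kept a gene of a cultivar if 2 or more replicates had it, and filled a missing replicate with the mean of the others, so each cultivar had a gene at 0 in all 3 libraries or in none. At least 1 value that equalled the mean of its 2 partners, here called filled, was held by 9.03% of the genes above 0 in all 6 libraries. The reads behind each FPKM are not given in the table. Replicate 1 of RD57 stood apart: across genes, its log2 values correlated with its own partners at r = 0.946 and 0.954, whereas the other pairs within a cultivar ranged from 0.972 to 0.976. Across cultivars r was 0.918 to 0.946. That library was more than 4-fold above both partners in 44 genes and below both in 51. RD6 replicate 2 was above both partners in 31 genes. The endosperm genes GBSSI and AgpS2b were high in all 6 libraries, and markers of other cell types carry no name in the table.

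Most genes differed little between the cultivars at 7 DPA. Expression was tested with limma on log2(FPKM + 0.5) in a fit to all 24 libraries, with Benjamini-Hochberg adjustment over the 26362 genes. Log2FC is RD57 over RD6, and a DEG had an absolute Log2FC of 2 or more together with an adjusted p of at most 0.05. On this scale the change of a gene with low FPKM is understated. Each standard error pools the spread of all 8 groups, to which a group listed at 0 adds none. Among the 19336 genes above 0 in all 6 libraries, 254 (1.31%) were DEGs, 134 upregulated (0.693%) and 120 downregulated (0.621%) in RD57. The median Log2FC of the 19336 genes was 0.0033 and the median absolute Log2FC 0.29. An absolute Log2FC under 1 was found in 91.9% of them, and 1310 lay between 1 and 2. Of the 260 genes at 2 or more, 6 did not pass the adjusted p.

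Smaller differences were more frequent. By adjusted p alone 3500 of the 19336 genes (18.1%) passed, 1738 higher and 1762 lower in RD57, and 61.7% of them had an absolute Log2FC under 1. The 3 libraries of RD57 did not overlap the 3 libraries of RD6 in 5845 genes (30.2%), 2883 higher and 2962 lower. Without RD57 replicate 1, 332 genes were DEGs, 192 upregulated and 140 downregulated, and 4066 passed by adjusted p alone. Without RD57 replicate 1 and RD6 replicate 2 together, a setting chosen after seeing the data, 308 were DEGs (180 upregulated and 128 downregulated) and 3415 passed by adjusted p alone. When only the 6 libraries of 7 DPA entered the fit, 222 DEGs and 2107 genes by adjusted p alone were found.

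Upregulated and downregulated DEGs were of similar size. The median Log2FC was 2.47 in the upregulated and -2.53 in the downregulated genes. An absolute Log2FC of 4 or more was reached by 12 of the 134 and by 11 of the 120. The upregulated genes had a median of 22.4 FPKM in RD57, against 2.69 FPKM in RD6. The downregulated genes had a median of 2.84 FPKM in RD57, against 20.5 FPKM in RD6. Each set was thus low in the cultivar with the lower level. Libraries of the cultivars did not overlap in 127 of the 134 and 116 of the 120 genes, which the choice by size favours. Of the 19336 genes 30.2% did not overlap. A filled value was held by 31 of the 134 and 22 of the 120 genes, against 9.03% of the 19336. The thresholds fell within a continuous range of values. XLOC_040387 (Log2FC 2.0091) lay just inside and XLOC_005691 (1.9989) just outside. On the lower side, XLOC_000245 (-2.0020) lay just inside and XLOC_008023 (-1.9936) just outside.

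**Figure D1:**
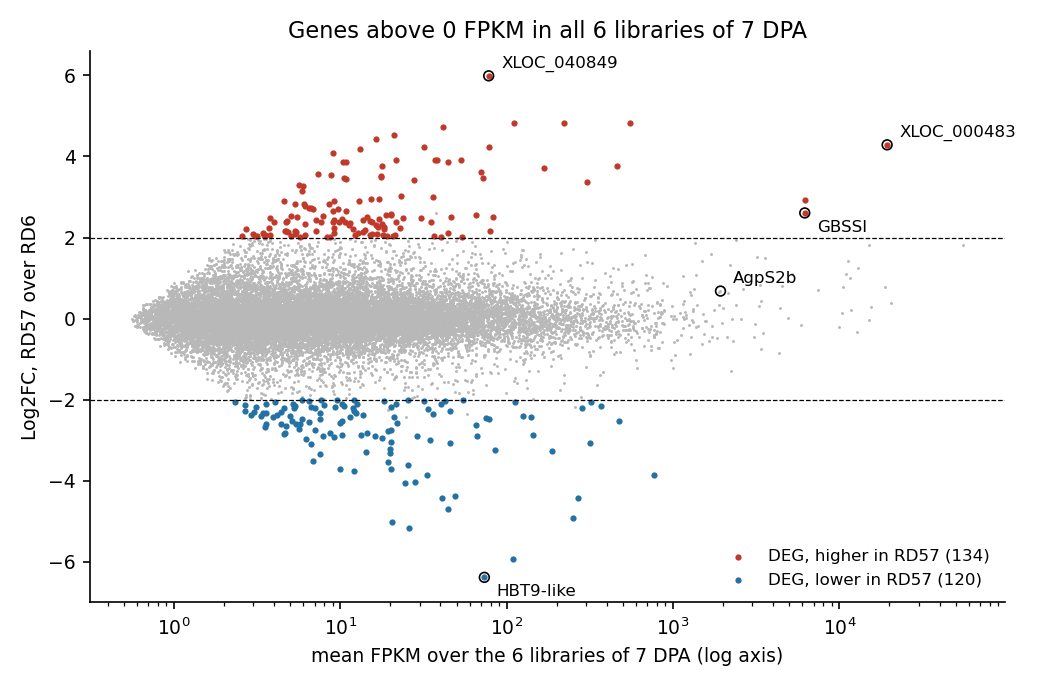
Log2FC (RD57 over RD6) against the mean FPKM of the 6 libraries (log axis) for the 19336 genes above 0 in all of them. Each point is a gene, red points are the 134 upregulated and blue points the 120 downregulated DEGs, grey points are the others, and dashed lines stand at 2 and -2. Ringed points are labelled genes, and most grey points lie close to 0.

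GBSSI was about 6-fold higher in RD57 at this early stage. Genes carry only assembly identifiers (XLOC) in the table, and the 12 names used here come from labels beside identifiers in a figure of the study, read by eye at low resolution, where a misread digit would give another gene. GBSSI (XLOC_023977) had 10868, 11754 and 9311 FPKM in RD57, against 1784, 1591 and 1853 FPKM in RD6. The lowest RD57 library was above the highest RD6 library. The means were 10644 ± 1237 FPKM in RD57 and 1743 ± 136 FPKM in RD6 (SD, n = 3 each), and the Log2FC was 2.61 (standard error 0.77, adjusted p = 0.0136, limma). The standard error comes from all 24 libraries, where GBSSI varied most in RD6 at 28 DPA. The adjusted p was 0.0971 with quantile normalization (Log2FC 1.80), 0.111 with only the 6 libraries of 7 DPA, and 0.0713 without RD57 replicate 1 and RD6 replicate 2, and over all 18 alternatives it ranged from 0.00202 to 0.111. An exact permutation test of 3 libraries against 3 cannot give a two-sided p below 0.1.

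AgpS2b (XLOC_033053), named for a small subunit of ADP-glucose pyrophosphorylase, was abundant in both cultivars. It had 2410, 2360 and 2334 FPKM in RD57, against 1685, 1518 and 1267 FPKM in RD6. All RD57 libraries were above all RD6 libraries, but the Log2FC of 0.68 (standard error 0.63) did not pass the test (adjusted p = 0.532, limma). This standard error also pools all 24 libraries and is not the spread at 7 DPA alone. In RD6 at 28 DPA the gene had 45.8, 40.6 and 506 FPKM, and the part of these values in the standard error was not tested. None of the 18 alternatives brought AgpS2b past the test, with 0.0980 as the lowest adjusted p and 0.724 as the highest. At 7 DPA the level of GBSSI thus exceeded that of AgpS2b in each library of both cultivars, and in RD6 both genes lay between 1267 and 1853 FPKM.

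The 6 largest upregulations without filled values were in genes that RD6 listed at levels from 0.615 to 48.7 FPKM. They are known here by identifier only, and no role can be given. XLOC_040849 had 135.7, 158.6 and 167.4 FPKM in RD57, against 1.43, 2.07 and 2.36 FPKM in RD6. The Log2FC of this gene was 5.99 (standard error 0.44, adjusted p = 5.96e-10, limma). It was listed at 0 in both cultivars at 28 DPA, and the highest adjusted p of its 18 alternatives was 4.49e-05. XLOC_017812 was as steady within each cultivar, with 410.0, 494 and 373 FPKM in RD57, against 13.2, 11.5 and 19.7 FPKM in RD6. In both genes the cultivars were far apart compared with the spread of their libraries. XLOC_022867 reached 887, 1335 and 969 FPKM in RD57, against 36.9, 27.2 and 48.7 FPKM in RD6. XLOC_026863 had 97.9, 292 and 256 FPKM in RD57, against 6.08, 7.10 and 5.81 FPKM in RD6, with RD57 replicate 1 the lowest of its group. XLOC_000321 showed the reverse, with its highest value in that library. Its values were 115, 65.0 and 59.8 FPKM in RD57, against 2.51, 3.78 and 1.45 FPKM in RD6. XLOC_014554 had 52.0, 34.5 and 36.1 FPKM in RD57, against 0.615, 2.30 and 1.29 FPKM in RD6. The Log2FC of the last 5 genes were 4.82, 4.82, 4.84, 4.72 and 4.52 in the order given, with adjusted p of at most 2.66e-06.

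The gene with the largest downregulation was HBT9-like (XLOC_000812). It had 1.30, 0.739 and 1.79 FPKM in RD57, against 175, 142 and 120 FPKM in RD6 (Log2FC -6.39, standard error 0.22, adjusted p = 2.76e-15, limma). HBT9-like was listed at 0 in both cultivars at 28 DPA, groups that add no spread to this standard error. The highest adjusted p of its 18 alternatives was 1.36e-04. XLOC_008618 had 0.804, 1.57 and 0.508 FPKM in RD57, against 62.9, 44.7 and 44.1 FPKM in RD6 (Log2FC -5.17). XLOC_015781 had 0.505, 0.822 and 0.967 FPKM in RD57, against 31.7, 44.9 and 44.5 FPKM in RD6 (Log2FC -5.01). XLOC_000930 (Log2FC -5.93) lies between them in size and is named after its values were seen, because it held a filled value in RD57. The first 3 genes lay close to the floor of 0.5 FPKM in RD57, so their Log2FC depends on the pseudocount. XLOC_011714 and XLOC_014449 were clearly expressed in both cultivars. XLOC_011714 had 8.22, 12.2 and 26.9 FPKM in RD57, against 678, 528 and 241 FPKM in RD6 (Log2FC -4.93). XLOC_014449 had 18.05, 21.2 and 26.6 FPKM in RD57, against 663, 626 and 258 FPKM in RD6 (Log2FC -4.42). In RD6 replicate 3 was the lowest library for both genes. XLOC_019164 had 6.71, 1.15 and 3.00 FPKM in RD57, against 46.1, 98.4 and 88.7 FPKM in RD6 (Log2FC -4.42). The adjusted p of the 6 genes after HBT9-like was at most 1.19e-04.

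**Figure D2:**
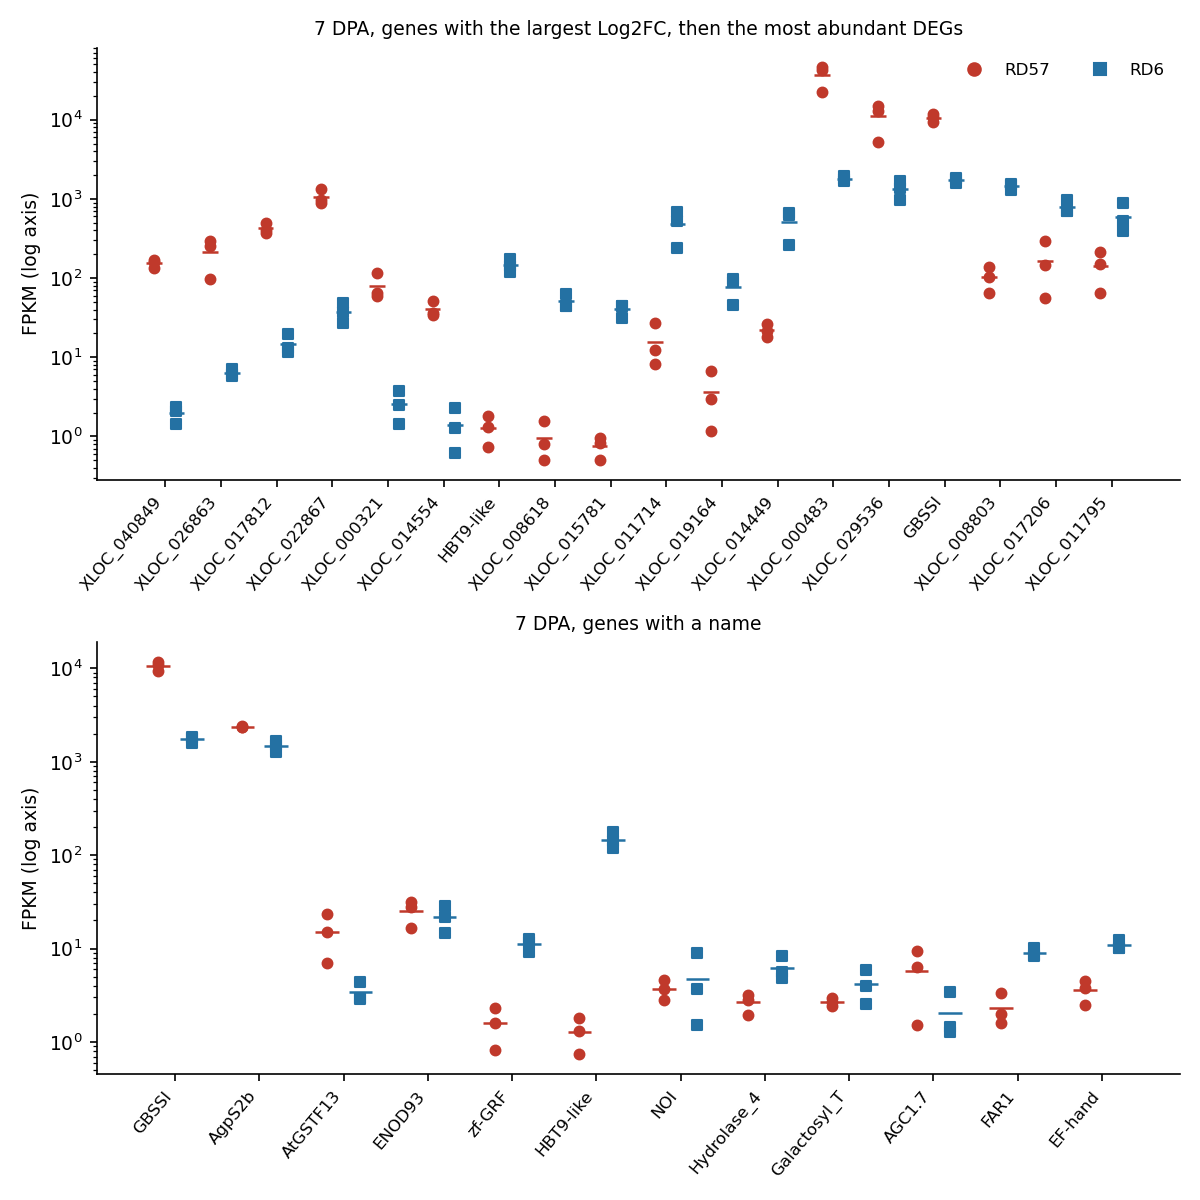
FPKM (log axis) of single genes in each library of 7 DPA, with RD57 as red circles left of RD6 as blue squares and a horizontal line at the mean of each group of 3. The upper panel holds, among DEGs without filled values or overlap, those with the largest Log2FC and the most abundant, and the lower panel holds the 12 genes with a name, where ENOD93, NOI, Galactosyl_T and AGC1.7 overlap.

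DEGs were found at nearly all levels of expression. The 19336 genes were placed in classes by their mean FPKM over the 6 libraries. Of 10092 genes between 1 and 10 FPKM, 106 were DEGs (55 upregulated and 51 downregulated), which is 1.05%. Of 7280 genes between 10 and 100 FPKM, 125 were DEGs (70 upregulated and 55 downregulated, 1.72%). Of 1162 genes between 100 and 1000 FPKM, 20 were DEGs (6 upregulated and 14 downregulated, 1.72%). The class between 100 and 1000 FPKM held more downregulated than upregulated DEGs, unlike the other 2, and this difference was not tested. No gene of the 709 under 1 FPKM reached an absolute Log2FC of 2, which the floor of 0.5 FPKM on the log scale hardly allows there. By adjusted p alone 15.7% of the genes under 1 FPKM passed, 19.6% between 1 and 10 FPKM, 17.0% between 10 and 100 FPKM, 14.5% between 100 and 1000 FPKM and 11.8% at 1000 FPKM and over.

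**Figure D3:**
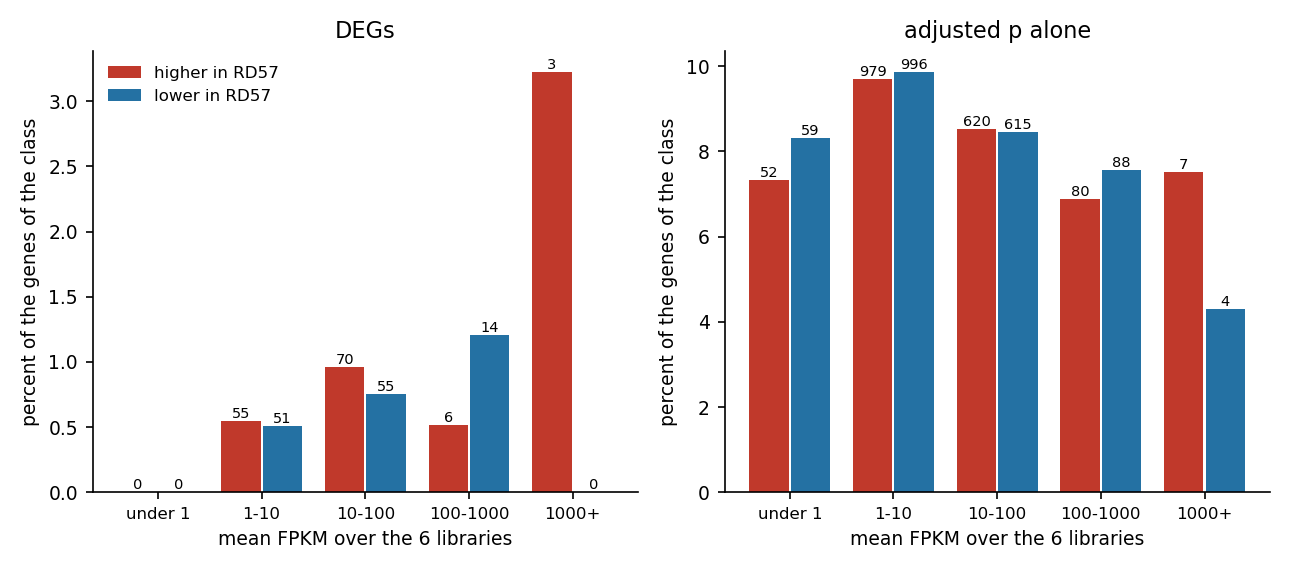
Percent of the genes of each class of mean FPKM that were DEGs (left) or passed the adjusted p alone (right), red bars for genes higher and blue bars for genes lower in RD57, with the number of genes above each bar. The class at 1000 FPKM and over holds 93 genes, so its DEG bar of 3 genes stands high.

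Genes at 1000 FPKM and over took a larger share of the total in RD57. They held 42.5%, 52.4% and 52.9% of all FPKM in RD57, against 39.5%, 36.8% and 34.3% in RD6. These genes were taken in each library on its own, 109, 97 and 91 in RD57 and 89, 93 and 91 in RD6. The share of the 10 most abundant genes of each library overlapped between the cultivars, with 17.7%, 27.9% and 29.1% in RD57, against 18.5%, 14.3% and 13.5% in RD6. In both measures RD57 replicate 1 was the lowest of its group. Over the 93 genes with a mean of at least 1000 FPKM the median Log2FC was 0.16, and it moved between 0.12 and 0.27 when 1 library was left out and to -0.09 with quantile normalization. Of these genes 7 were higher and 4 lower by adjusted p alone, and the 3 DEGs were all upregulated. Their median standard error was 0.50, against 0.23 for all 19336 genes, so differences of a given size were harder to call in this fit. These standard errors pool all 24 libraries. Among them RD6 replicate 3 of 28 DPA was more than 4-fold above both partners in 44 of the 84 of these genes above 0 there. The part of that library in the standard error was not tested. The most abundant gene of every library was XLOC_000359, with 4.53%, 8.83% and 9.68% of all FPKM in RD57, against 3.23%, 2.51% and 2.19% in RD6. It had 44893, 103476 and 113889 FPKM in RD57, against 30202, 22557 and 18071 FPKM in RD6. All RD57 libraries were higher, but the Log2FC of 1.81 (standard error 1.13) did not pass the test (adjusted p = 0.292, limma).

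The 3 upregulated DEGs at this level were XLOC_000483, XLOC_029536 and GBSSI. XLOC_000483 had 22264, 45833 and 42710 FPKM in RD57, against 1762, 1681 and 1973 FPKM in RD6 (Log2FC 4.29, standard error 0.81, adjusted p = 2.78e-04, limma). XLOC_029536 had 5219, 14859 and 12953 FPKM in RD57, against 1691, 1356 and 973 FPKM in RD6 (Log2FC 2.94, adjusted p = 0.00202). In both genes RD57 replicate 1 was the lowest of its group and still above all of RD6. With only the 6 libraries of 7 DPA in the fit, the adjusted p was 0.209 for XLOC_000483 and 0.0691 for XLOC_029536, the highest of their 18 alternatives, whose lowest were 1.44e-04 and 0.00115. Among the downregulated DEGs the most abundant in RD6 was XLOC_008803, with 139.7, 65.2 and 104 FPKM in RD57, against 1482, 1530 and 1310 FPKM in RD6 (Log2FC -3.86, adjusted p = 1.37e-07, limma). XLOC_017206 had 296, 144 and 55.7 FPKM in RD57, against 708, 955 and 700 FPKM in RD6 (Log2FC -2.54). XLOC_011795 had 64.5, 148 and 211 FPKM in RD57, against 880.0, 521 and 394 FPKM in RD6 (Log2FC -2.16). XLOC_017206 varied widely in RD57 and XLOC_011795 in both cultivars, and neither gene overlapped between the cultivars.

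Of the 12 genes with a name, 1 more was upregulated in RD57 by adjusted p beside GBSSI. AtGSTF13 (XLOC_004640), named for a glutathione S-transferase of Arabidopsis, had 6.95, 23.3 and 14.9 FPKM in RD57, against 4.39, 2.99 and 2.86 FPKM in RD6 (Log2FC 1.86, adjusted p = 0.00157, limma). Beside HBT9-like, 3 were downregulated. The gene of a zinc-finger domain, zf-GRF (XLOC_017830), had 2.31, 0.828 and 1.61 FPKM in RD57, against 11.9, 9.23 and 12.8 FPKM in RD6 (Log2FC -2.56, adjusted p = 2.60e-06). FAR1 (XLOC_015291), named for a regulator of light responses in Arabidopsis, had 1.61, 1.99 and 3.38 FPKM in RD57, against 8.30, 8.59 and 10.1 FPKM in RD6 (Log2FC -1.79, adjusted p = 4.31e-05). The EF-hand gene (XLOC_003468), named for a calcium-binding motif, had 2.49, 3.82 and 4.51 FPKM in RD57, against 10.2, 12.4 and 10.2 FPKM in RD6 (Log2FC -1.51, adjusted p = 0.00196). In these 4 genes the cultivars did not overlap. The other 6, AgpS2b among them, did not pass the test. Hydrolase_4 (XLOC_010911) had 1.97, 3.18 and 2.82 FPKM in RD57, against 8.33, 5.56 and 4.87 FPKM in RD6, with no overlap (Log2FC -1.08, adjusted p = 0.118). AGC1.7 (XLOC_020855), named for a protein kinase of Arabidopsis, had 1.53, 6.31 and 9.38 FPKM in RD57, against 3.47, 1.28 and 1.44 FPKM in RD6 (Log2FC 1.11, adjusted p = 0.0529). The groups overlapped through RD57 replicate 1 and RD6 replicate 1. Without either library the gene passed (Log2FC 1.78, adjusted p = 1.45e-04 without the RD57 library and 1.47, adjusted p = 0.0153 without the RD6 library), and over 18 alternatives the adjusted p ranged from 1.45e-04 to 0.368. ENOD93 (Log2FC 0.22), NOI (-0.06) and Galactosyl_T (-0.48) overlapped between the cultivars, and the last 2 held filled values.

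Genes listed at 0 in one cultivar were mostly of low abundance in the other. The 1912 genes found in RD57 only had a median of 1.46 FPKM there, and 30.9% were under 1 FPKM. The 1891 genes found in RD6 only had a median of 1.24 FPKM there, and 38.3% were under 1 FPKM. Filled values were held by 46.5% of the RD57-only and 41.3% of the RD6-only genes, against 9.03% of those above 0 in both. By the DEG thresholds 890 RD57-only and 764 RD6-only genes passed, so that of all 26362 genes 1908 (7.24%) were DEGs, 1024 upregulated (3.88%) and 884 downregulated (3.35%). No fold is given for these genes, because a listed 0 can stand for any value under 0.5 FPKM and their Log2FC follows the pseudocount. The count of 1654 became 3803 with a pseudocount of 0.1 and 840 with a pseudocount of 1. Reads of both cultivars were aligned to 1 indica genome, and a sequence that aligns poorly in 1 cultivar cannot be told apart from a transcript that is missing there. A limit of at least 2 FPKM in each library of the expressing cultivar was chosen after seeing the data. It was reached by 484 RD57-only and 388 RD6-only genes. All of them were DEGs, but this limit with a listed 0 puts the absolute Log2FC past 2 in advance. A mean of at least 10 FPKM was reached by 165 and 135.

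A few of these genes were strongly expressed in one cultivar, and the examples without filled values come first. XLOC_012700 had 305, 752 and 643 FPKM in RD57 and was listed at 0 in RD6. XLOC_000257 had 361, 230.4 and 237 FPKM in RD57 and XLOC_036322 had 349, 153 and 325 FPKM, both listed at 0 in RD6. The 3 genes took different courses later. At 14 DPA XLOC_012700 averaged 1766 ± 695 FPKM in RD57, against 10.6 ± 3.54 FPKM in RD6 (SD, n = 3 each), while XLOC_036322 was listed at 0 in both cultivars from 14 DPA on. XLOC_000257 declined in RD57, where it averaged 62.2 ± 28.4 FPKM at 14 DPA, 4.62 ± 3.12 at 21 DPA (SD, n = 3) and 0.891 FPKM at 28 DPA, where a filled value leaves 2 measured ones, and stayed at 0 in RD6. On the other side, XLOC_024294 was listed at 0 in RD57 and had 161, 213 and 162 FPKM in RD6. XLOC_021323 was listed at 0 in RD57 and had 202, 139 and 152 FPKM in RD6. XLOC_000109 was listed at 0 in RD57 and had 101, 3422 and 152 FPKM in RD6, so its mean rested on replicate 2. It was above 0 in both cultivars at each later DPA. The highest means of RD6-only genes beside it belonged to genes with a filled value, which are named after their values were seen. XLOC_000125 was listed at 0 in RD57 and had 5001, 8002 and 1999 FPKM in RD6, and XLOC_013327 was listed at 0 in RD57 and had 820, 999 and 909 FPKM in RD6.

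Genes listed at 0 in one cultivar at 7 DPA were often listed at 0 there later too. Of the 1912 RD57-only genes, 1142 were listed at 0 in RD6 at all 4 DPA (59.7%). Of the 1891 RD6-only genes, 1176 were listed at 0 in RD57 at all 4 DPA (62.2%). Among those with at least 2 FPKM in each library, 375 of 484 and 317 of 388 were never listed in the other cultivar. A gene never listed in the other cultivar could itself be at 0 in both at some DPA. At 14, 21 and 28 DPA 500, 781 and 1006 of the 1912 genes were at 0 in both. Of the 1891 genes 609, 663 and 1459 were, against 3164, 3720 and 7360 of all 26362 genes. Of the 1912 genes 400 were RD57-only at all 4 DPA, and of the 1891 genes 0 were RD6-only at all 4 DPA, because no gene of the whole table was RD6-only at 28 DPA. At 14 DPA 75.4% of the 484 were still RD57-only and 77.1% of the 388 still RD6-only, whereas 14.9% and 12.9% were above 0 in both. At 28 DPA 57.6% of the 484 were RD57-only. At that DPA 91.8% of the 388 were at 0 in both. Of all 26362 genes, 1454 were RD57-only and 0 RD6-only at 28 DPA, against 1559 and 2406 at 21 DPA.

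Many of the 254 DEGs above 0 in all 6 libraries were no longer DEGs at a later stage. The later libraries are separate samples of the same cultivars. Of the 134 genes upregulated at 7 DPA, 57 were again upregulated DEGs at 14 DPA, 38 at 21 DPA and 35 at 28 DPA, where 1.2%, 0.703% and 0.833% of the 19336 genes were upregulated. Of the 120 downregulated genes, 58, 45 and 16 were again downregulated at 14, 21 and 28 DPA, against 1.18%, 2.23% and 0.496% of the 19336 genes. The low count of 16 at 28 DPA stands beside the missing RD6-only genes of that DPA, since 36 genes were downregulated at 7, 14 and 21 DPA, 24 of these were not at 28 DPA, and 23 of the 24 were listed at 0 in both cultivars there. The part of that listing in the count was not tested. DEGs in the opposite direction were fewer than those in the same direction. Among the 134 genes, 0, 5 and 2 were downregulated at 14, 21 and 28 DPA. Among the 120 genes, 4, 0 and 3 were upregulated at these DPA. Of the 19336 genes, 1.18%, 2.23% and 0.496% were downregulated and 1.2%, 0.703% and 0.833% upregulated. DEGs at 7 DPA alone were 58 of the 134 and 48 of the 120. DEGs in the same direction at all 4 DPA were 23 of the 134 and 12 of the 120.

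The median size of the difference was smaller at later stages, as the choice of genes at 7 DPA favours. The median Log2FC of the 134 upregulated genes was 2.47, 1.74, 0.91 and 0.54 at 7, 14, 21 and 28 DPA, and that of the 120 downregulated genes was -2.53, -1.93, -1.50 and 0.00. The median of all 19336 genes was within 0.01 of 0 at each DPA. Part of the 28 DPA value came from genes listed at 0 in both cultivars, 42 of the 134 and 51 of the 120. Over the 66 upregulated genes above 0 in all 24 libraries the medians were 2.47, 1.87, 1.19 and 1.04. Over the 57 downregulated genes above 0 in all 24 libraries they were -2.41, -0.67, -0.62 and -0.47. In these 57 genes the median log2(FPKM + 0.5) was 2.08, 3.01, 3.15 and 3.55 in RD57, against 5.09, 4.07, 4.51 and 4.80 in RD6. At 14 DPA the level was higher in RD57 and lower in RD6 than at 7 DPA, and at 28 DPA RD6 was close to its 7 DPA level while RD57 was higher than at 7 DPA. In the 66 upregulated genes the levels were 4.72, 5.24, 3.82 and 3.53 in RD57, against 2.03, 2.98, 2.36 and 1.84 in RD6.

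The change of the difference itself was tested as the RD57 over RD6 contrast of the later DPA minus that of 7 DPA. Since the genes were chosen by their 7 DPA contrast, these counts are a description. The change passed the adjusted p at 14, 21 and 28 DPA in 43, 80 and 88 of the 134 upregulated genes and in 58, 57 and 97 of the 120 downregulated genes, against 12%, 16.6% and 14% of the 19336 genes. At 28 DPA 36 of the 88 and 50 of the 97 were listed at 0 in both cultivars. Without RD57 7 DPA replicate 1, where 332 genes were DEGs, the 21 DPA count over both directions was 209, against 137 with all libraries.

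**Figure D4:**
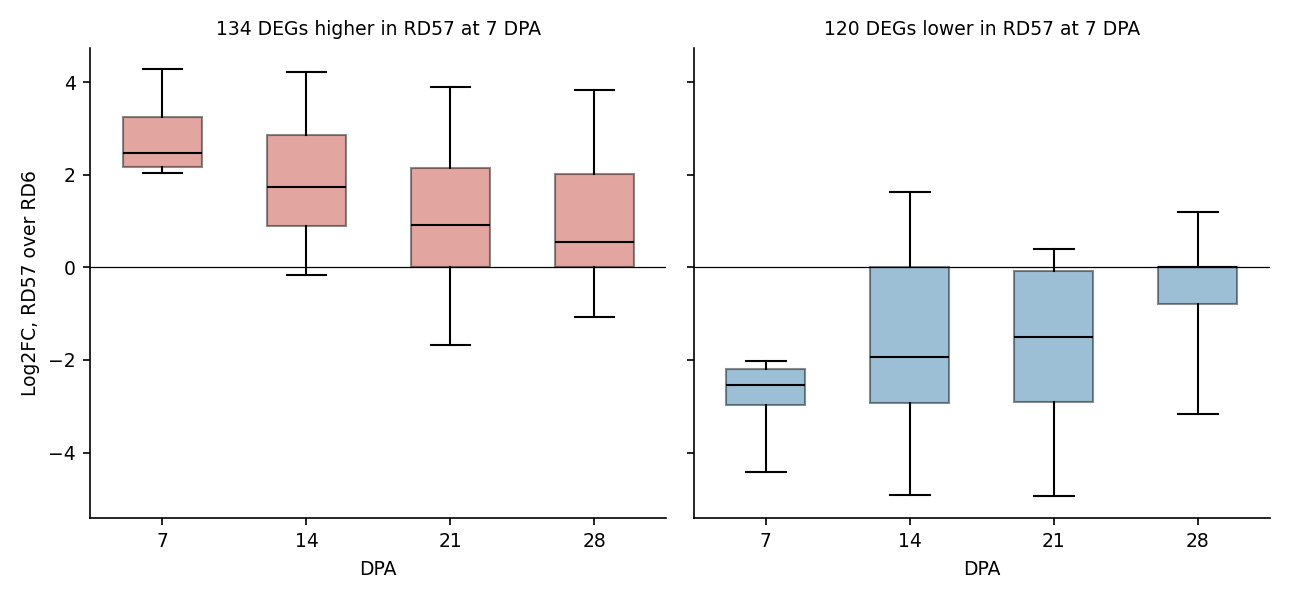
Log2FC (RD57 over RD6) at 7, 14, 21 and 28 DPA of the 134 upregulated (left, red) and 120 downregulated (right, blue) DEGs of 7 DPA that were above 0 in all 6 libraries. Boxes span the quartiles with a line at the median and whiskers reach the 5th and 95th percentiles, and the medians move toward 0 with age.

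The stage of highest mean FPKM also differed between the cultivars in these genes. Of the 134 upregulated genes, 69 were highest at 7 DPA in RD57 and 42 in RD6, and 12 (8.96%) were highest at 21 or 28 DPA in RD57, against 37 (27.6%) in RD6. Of the 120 downregulated genes, 50 were highest at 7 DPA in RD57 and 77 in RD6, and 37 (30.8%) were highest at 21 or 28 DPA in RD57, against 23 (19.2%) in RD6. Among all 19336 genes 35.3% were highest at 7 DPA in RD57 and 34.8% in RD6, and 38.1% were highest at 21 or 28 DPA in RD57 and 38.7% in RD6. The late shares of both sets thus lay under that of all genes in both cultivars. No test is given for these shares, because a gene chosen as high in a cultivar at 7 DPA is more often highest there.

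Some genes kept a large difference through all stages. XLOC_022160 had 29.5, 35.0 and 36.6 FPKM in RD57, against 2.41, 1.59 and 2.03 FPKM in RD6 at 7 DPA. Its means at 14, 21 and 28 DPA were 34.8, 34.5 and 36.8 FPKM in RD57, against 1.46, 0.694 and 0.604 FPKM in RD6, the last 2 with a filled value. Its Log2FC was 3.77, 4.17, 4.87 and 5.07 at the 4 DPA, the level in RD57 being nearly constant. XLOC_017812 had Log2FC of 4.82, 4.23, 4.38 and 3.61. XLOC_014554 was listed at 0 in RD6 from 14 DPA on and averaged 40.9, 21.1 and 27.8 FPKM in RD57. On the lower side XLOC_031030 had 1.48, 2.28 and 3.35 FPKM in RD57, against 43.0, 35.3 and 62.2 FPKM in RD6 at 7 DPA, and Log2FC of -4.06, -5.04, -4.25 and -5.69. XLOC_029162 had 0.845, 5.22 and 6.68 FPKM in RD57, against 36.1, 45.3 and 58.9 FPKM in RD6, and Log2FC of -3.61, -4.74, -3.06 and -4.04. XLOC_008618 had Log2FC of -5.17, -4.91, -4.95 and -2.72, the third of which follows the pseudocount because RD57 was listed at 0 at 21 DPA. Each of these 6 genes passed the DEG thresholds at all 4 DPA, with adjusted p of at most 1.38e-05.

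The mean of GBSSI was higher in RD57 at all 4 DPA, without overlap between the libraries of the cultivars. Its means at 14, 21 and 28 DPA were 21225 ± 5229, 5970 ± 1588 and 1113 ± 30.5 FPKM in RD57, against 7381 ± 1555, 598 ± 352 and 191 ± 286 FPKM in RD6 (SD, n = 3 each). The Log2FC was 1.52 (adjusted p = 0.168) at 14 DPA, 3.49 (adjusted p = 0.00123) at 21 DPA and 3.96 (adjusted p = 7.82e-04) at 28 DPA (limma). None of its 3 changes from 7 DPA passed the test (adjusted p = 0.589, 0.619 and 0.439). In RD6 at 28 DPA replicate 3 had 521 FPKM and replicates 1 and 2 had 29.8 and 22.5 FPKM. That library was more than 4-fold above both partners in 44 of 84 genes that had a mean of at least 1000 FPKM at 7 DPA and were above 0 in it. Without it the change of GBSSI from 7 to 28 DPA was 2.79 and passed (adjusted p = 8.78e-04), against 1.36 with it, and over the 12 fits that each left out 1 library of those stages the adjusted p ranged from 8.78e-04 to 0.827.

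Other genes were higher in one cultivar at 7 DPA and in the other later. XLOC_022867, upregulated at 7 DPA with a Log2FC of 4.82, averaged 2985 ± 790 FPKM in RD57, against 1009 ± 161 FPKM in RD6, at 14 DPA. At 28 DPA it had 4.63, 11.6 and 10.1 FPKM in RD57, against 25.7, 21.2 and 250 FPKM in RD6 (Log2FC -2.59, adjusted p = 0.00579, limma). XLOC_012484 had 429, 687 and 552 FPKM in RD57, against 54.8, 38.1 and 68.6 FPKM in RD6 at 7 DPA (Log2FC 3.37). At 28 DPA it had 3.65, 7.42 and 11.4 FPKM in RD57, against 36.3, 26.6 and 295 FPKM in RD6 (Log2FC -3.18). Both genes were highest in RD6 replicate 3 at 28 DPA, and the other 2 RD6 libraries also lay above all of RD57. The difference remained past the adjusted p without any 1 library of 7 or 28 DPA. Without RD6 28 DPA replicate 3 the Log2FC was -1.46 for XLOC_022867, no longer a DEG by size, and -2.11 for XLOC_012484.

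The opposite course was seen in genes downregulated at 7 DPA. XLOC_014449 had 36.3, 695 and 204 FPKM in RD57, against 23.0, 16.0 and 11.6 FPKM in RD6 at 14 DPA (Log2FC 3.37, adjusted p = 0.0019), whereas at 7 DPA RD57 was the lower one (Log2FC -4.42). At 14 DPA the RD57 libraries spread widely but did not overlap RD6. XLOC_011800 had 3.15, 3.71 and 4.58 FPKM in RD57, against 58.1, 78.8 and 50.6 FPKM in RD6 at 7 DPA (Log2FC -3.86). At 14 DPA it had 1.05, 64.1 and 29.5 FPKM in RD57, against 4.55, 1.01 and 1.16 FPKM in RD6, with overlap (Log2FC 2.63, adjusted p = 0.0244). That call was lost in 4 of the fits without 1 library, with adjusted p from 0.0867 to 0.198. At 21 DPA XLOC_011800 was again a DEG lower in RD57 (Log2FC -2.36, adjusted p = 0.0432, limma). It averaged 1.93 FPKM in RD57, with a filled value, against 13.1 FPKM in RD6. At 28 DPA it averaged 3.87 FPKM in RD57, with a filled value, and was listed at 0 in RD6. XLOC_011714 and XLOC_011795 lost their difference after 7 DPA without passing the test in the other direction. At 14 DPA XLOC_011714 averaged 197 ± 86.9 FPKM in RD57, against 89.6 ± 25.01 FPKM in RD6, and XLOC_011795 averaged 1298 ± 441 FPKM in RD57, against 568 ± 114 FPKM in RD6 (SD, n = 3 each). By 21 DPA XLOC_011795 had 4508 ± 638 FPKM in RD57, against 5023 ± 1296 FPKM in RD6.

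**Figure D5:**
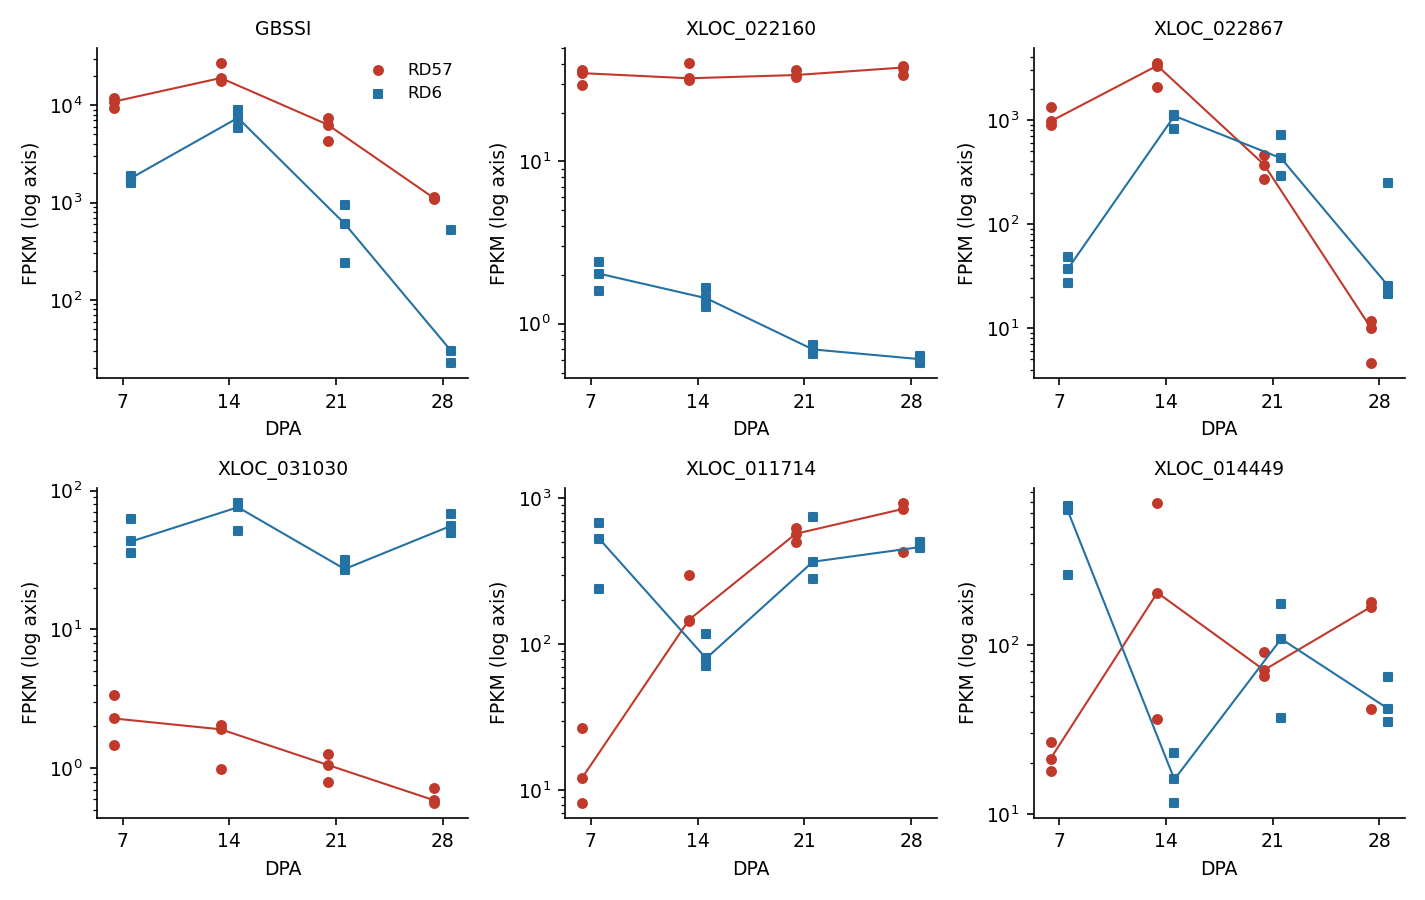
FPKM (log axis) at 7, 14, 21 and 28 DPA of 6 genes, with RD57 libraries as red circles and RD6 libraries as blue squares and lines through the medians of the 3 libraries. GBSSI and XLOC_022160 stay higher and XLOC_031030 lower in RD57. In XLOC_022867, XLOC_011714 and XLOC_014449 the order of the medians differs from that of 7 DPA at some later DPA, but no later difference of XLOC_011714 passed the test.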

How the data were processed

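Per the study's methods and the labels, RNA of RD57 and RD6 grains (TruSeq Stranded mRNA kit) was sequenced in 3 biological replicates for each cultivar and DPA. The authors filtered reads with Fastp and Trimmomatic, removed rRNA with SortMeRNA, aligned to an indica genome with HISAT2, assembled with Cufflinks and Cuffmerge, and obtained the deposited FPKM with Cuffquant and Cuffnorm. They dropped values under 0.5 FPKM and genes seen in fewer than 2 replicates, and replaced each missing replicate by the average. How reads shared by near-identical genes were divided was not examined. No read counts are given, so precision was judged from replicates, and the authors' count model was not applied. Replacement makes replicates look closer than they were.

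Columns were matched to samples by the column name in each label, and samples were grouped by cultivar and DPA. In R 4.3.3, log2(FPKM + 0.5) was fitted with limma 3.58.1 (8 group means, 24 libraries, trended empirical Bayes, no rescaling), with Benjamini-Hochberg adjustment over 26362 genes. The study's thresholds were used for DEGs. Single genes were called by adjusted p. The fit was checked on simulated data. A value was counted as filled where it equalled the mean of its 2 partners within a relative tolerance of 1e-05. Figures used Python 3.11.15, pandas 2.3.3 and matplotlib 3.10.9.

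Named genes without overlap between cultivars or filled values at 7 DPA were the 6 largest Log2FC in each direction, the 3 most abundant, the 3 largest at all 4 DPA, the 2 largest with an opposite DEG later, and the 3 most abundant listed at 0 in the other cultivar. To these, the 12 genes with a name were added, and the figure that names them was drawn by the study from the same libraries. The members, lists and thresholds were chosen with earlier results of these data known. No identifier matched the available rice gene table (0 matches), so no sequence or position is given. Alternatives were other pseudocounts, quantile normalization, median centring, no trend, fewer libraries or genes, no filled values, a lower Log2FC threshold, a replicate block and leaving out each library.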

Additional observations from a re-analysis of the deposited data

Results flagged for a closer look

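The RD57 over RD6 difference of the genes below changed between 7 DPA and a later DPA by limma's test of the difference of differences, with adjusted p of at most 0.0293. All but NOI and AGC1.7 had been chosen for their 7 DPA difference, so part of each test rests on the values that chose them. NOI and AGC1.7 have names from a figure of the study, which reports both as higher in RD6 in these same libraries. Their change thus also rests on a list drawn from the same data. XLOC_022867, XLOC_012484, XLOC_014449 and XLOC_011800 had also been chosen for a DEG in the opposite direction later, so their change is a description and no evidence of a changed order. Groups of 3 libraries are too small for a test of single outlying samples.

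From 7 to 14 DPA the Log2FC of genes upregulated in RD57 at 7 DPA changed by -1.93 in XLOC_040849, -3.28 in XLOC_022867, -3.34 in XLOC_012484 and, away from 0, by 1.85 in XLOC_014554. In genes downregulated at 7 DPA it changed by 6.01 in XLOC_011714, 7.79 in XLOC_014449, 6.49 in XLOC_011800, 3.32 in XLOC_011795 and, away from 0, by -0.75 in XLOC_015781. XLOC_014554 was listed at 0 in RD6 and XLOC_015781 in RD57 at 14 DPA, so both values follow the pseudocount. AGC1.7 (XLOC_020855) changed by -2.18 and NOI (XLOC_019940) by -2.04, with Log2FC of -1.07 and -2.10 at 14 DPA. From 7 to 28 DPA the Log2FC changed by -7.41 in XLOC_022867, -6.55 in XLOC_012484 and 6.99 in XLOC_011800. At 28 DPA XLOC_011800 was listed at 0 in RD6 and held a filled value in RD57, so its change follows the pseudocount too. When each library of the stages compared was left out in turn, the change was lost in 6 of 12 fits for XLOC_040849 (highest adjusted p = 0.0829), in 3 of 12 for NOI (0.0815) and in 2 of 12 for XLOC_015781 (0.0527), and it passed in all 12 for each of the other values.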

How the results depend on the processing

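Leaving out 1 library of 7 DPA gave 240 to 332 DEGs above 0 in all 6 libraries, 2535 to 4066 genes by adjusted p alone and 1616 to 1672 DEGs listed at 0 in one cultivar. A pseudocount of 0.1 gave 3803 DEGs listed at 0 in one cultivar, 135 DEGs in the same direction at 21 DPA, and a changed difference in 154 DEGs at 14 DPA and 209 at 21 DPA. A pseudocount of 1 gave 840 DEGs listed at 0 in one cultivar. At least 2 FPKM in each expressing library, chosen after seeing the data, left 872. A Log2FC threshold of 1 gave 1340 DEGs above 0 in all 6 libraries, 3792 listed at 0 in one cultivar, and 541, 420 and 250 in the same direction at 14, 21 and 28 DPA. With only the 6 libraries of 7 DPA, 2107 genes above 0 in all 6 passed by adjusted p alone, and 1421 when the genes were also limited to these. Quantile normalization moved the median Log2FC of the classes at 1 to 10, 10 to 100 and 1000 FPKM and over to -0.0432, -0.0221 and -0.0886. Without 1 library these medians ranged from -0.0217 to 0.0225 under 1 FPKM, -0.0249 to 0.0109 at 1 to 10, -0.0839 to 0.0167 at 100 to 1000 and 0.117 to 0.272 at 1000 FPKM and over. Without 1 library of any DPA, 110 to 128, 76 to 96 and 49 to 54 DEGs had the same direction at 14, 21 and 28 DPA, and the difference had changed in 92 to 143, 121 to 209 and 164 to 253. Replicate numbers were not used to pair the samples. In a check of pairing, same-numbered libraries had correlations of -0.34, -0.09 and -0.12, against -0.20 to 0.27 for libraries of other numbers. These are on another measure than the log2 values, whose r across cultivars was at least 0.918. With 3 same-numbered values the check cannot show that the replicates were unpaired. A fit with a replicate block found 252 DEGs above 0 in all 6 libraries, against 254. The block moved no count by over 1.5 times. Of 592 fits of the 33 genes above 0 in both cultivars, 584 kept the side of the threshold and the 8 others concern GBSSI, XLOC_000483, XLOC_029536 and AGC1.7, as given above. The lack of read counts limits what can be said of genes near 0.5 FPKM.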

Other observations

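Of the 93 genes with a mean of at least 1000 FPKM over the 6 libraries of 7 DPA, 8 passed the adjusted p without reaching an absolute Log2FC of 2. They were looked at after their values were seen. The 4 lower in RD57 were XLOC_029435 (1325, 1070.3 and 1510.5 FPKM in RD57, against 3086, 3440.1 and 2928 FPKM in RD6, Log2FC -1.29), XLOC_028879 (-1.23), XLOC_003803 (-0.89) and XLOC_023753 (-0.64). None of the 4 was lower in RD57 by adjusted p at a later DPA, and XLOC_003803 was higher in RD57 at 14 DPA (Log2FC 0.95, adjusted p = 0.00155, limma), as was XLOC_029435 at 28 DPA (Log2FC 0.90, adjusted p = 0.00945). The 4 higher in RD57 were XLOC_021363 (1.85), XLOC_023149 (1.51), XLOC_040314 (1.49) and XLOC_014587 (1.43). XLOC_040314 had 5353, 7917 and 2790 FPKM in RD57, against 1559, 1961 and 1760.3 FPKM in RD6 at 7 DPA, with a filled value in each cultivar. At 14 DPA XLOC_040314 had 2127, 12102 and 4248 FPKM in RD57 and was listed at 0 in RD6, and at 21 and 28 DPA it was listed at 0 in both. XLOC_021363 was again higher in RD57 by adjusted p at 14 and 28 DPA, and so was XLOC_023149. At 28 DPA both were listed at 0 in RD6 and averaged 2.26 and 1.93 FPKM in RD57. XLOC_014587 was again higher at 14 DPA (Log2FC 1.13, adjusted p = 0.00144), and its Log2FC of -0.45 at 21 DPA and -0.47 at 28 DPA did not pass.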
